A study of Schizosaccharomyces pombe with 9 samples.

Results

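In the fission yeast Schizosaccharomyces pombe, 72 weakly counted long non-coding RNAs stood at 0.0734 to 0.498 of their wild-type level in cells lacking aps1. They were chosen from the same counts they are described with. Among the identifiers that start with SPNCRNA, the prefix that the PomBase database gives to non-coding RNAs, the rule took those with a mean of 1 to under 10 CPM in WT, where CPM is a count divided by its library's total and scaled to a total of 1000000. It then kept those whose aps1 deletion mean was at most 0.5 times the WT mean, with every aps1 deletion library below every WT library, and whose asp1-D333A mean was under 2 times the WT mean; 4 identifiers had been left out by name beforehand. Of 6986 identifiers in the count table, 1524 were SPNCRNA, 685 were weak in WT, 143 of these were at most 0.5 times WT in the aps1 deletion, 109 did not overlap between the strains, and 72 remained after 37 had been removed by the asp1-D333A limit. That the members were low in the aps1 deletion, and were not at 2 times WT or more in asp1-D333A, is therefore the rule and not a finding.

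The libraries came from 3 strains with 3 libraries each: an aps1 deletion (replicates 1 to 3), asp1-D333A (replicates 1 to 3), which carries a point mutation in asp1, and WT (replicates 4 to 6). All were vegetative cells taken in log phase in YES, a rich medium, at 30 °C, and the libraries were made from poly(A) RNA with a kit that marks the strand. No other allele is given in the labels, each strain has 1 strain number, and nothing says what the replicate experiments of a strain shared, so the p-values below measure the spread between these libraries. Counts per library ran from 18244492 to 22999732.

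Aps1 is a Nudix-family hydrolase that removes phosphates from inositol pyrophosphates, small signalling molecules that carry high-energy diphosphate groups. Asp1 has a kinase domain that makes the inositol pyrophosphate IP8 and a phosphatase domain that removes it, and the D333A change inactivates the kinase. Loss of Aps1 is known to raise inositol pyrophosphates, and loss of the Asp1 kinase to remove IP8. In fission yeast, inositol pyrophosphates act on 3′ processing and transcription termination, best studied at long non-coding RNAs whose transcription represses the phosphate-acquisition genes that lie downstream of them. Fission yeast makes many such RNAs at low level, often antisense to coding genes, and the nuclear exosome and RNA interference remove much of this output.

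The label of the aps1 deletion was checked at its targeted gene. aps1 had 11.3, 7.03 and 7.66 CPM in the aps1 deletion libraries, 88.7, 91.1 and 92.7 CPM in asp1-D333A and 144, 126 and 130 CPM in WT. Counts per gene cannot show a point mutation, so the asp1-D333A label could not be checked; asp1 had 51.9, 53.2 and 72.9 CPM in asp1-D333A and 47.1, 46.7 and 52.2 CPM in WT. WT replicate 4 stood apart from the other WT libraries for RNAs antisense to abundant genes, so ratios that move most with it are also given without it.

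Most members lay antisense to a coding gene. All 72 matched an entry of the RefSeq annotation of the ASM294v3 assembly; 40 lay on chromosome I, 24 on II and 8 on III, against 299, 252 and 129 of the 680 matched weak SPNCRNA. Their lengths ran from 407 to 3455 nucleotides with a median of 1043. A coding gene overlapped 62 members on the opposite strand, which was 86.1% of members against 70.6% of the other 608 weak SPNCRNA. A same-strand coding gene overlapped 3 members, and 9 overlapped none. The 5′ end of 34 members, 47.2%, lay inside the coding sequence of an opposite gene, against 146, or 24%, of the other weak SPNCRNA. These shares are descriptions of the chosen RNAs and were not tested. The WT mean used by the rule includes WT 4. In 23 members WT 4 was at more than 1.5 times the higher of WT 5 and WT 6, and all 23 were antisense.

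Sequences from RefSeq, ASM294v3, show the kinds of start and end that members have. Each start window below runs 5′ to 3′ on the strand of the RNA from 250 bases before the annotated start, with the first 50 bases of the RNA in capitals. SPNCRNA.747 is the member with the most counts in WT and SPNCRNA.787 had the second lowest ratio of aps1 deletion to WT. All 300 bases of each of these windows are coding sequence of the opposite gene, osh3 for SPNCRNA.747 and ebp2 for SPNCRNA.787. SPNCRNA.07, also named meu3, stands for the members that overlap no coding gene, and SPNCRNA.1558 has a TATA element (TATAAA) whose first base is 35 bases before the start.
SPNCRNA.747 (chromosome I, minus strand): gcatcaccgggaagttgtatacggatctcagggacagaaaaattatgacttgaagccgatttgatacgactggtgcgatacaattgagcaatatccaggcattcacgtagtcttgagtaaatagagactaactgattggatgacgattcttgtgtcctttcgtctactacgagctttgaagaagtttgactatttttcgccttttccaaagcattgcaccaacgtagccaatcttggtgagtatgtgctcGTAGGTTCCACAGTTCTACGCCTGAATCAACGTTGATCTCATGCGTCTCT
SPNCRNA.787 (chromosome I, minus strand): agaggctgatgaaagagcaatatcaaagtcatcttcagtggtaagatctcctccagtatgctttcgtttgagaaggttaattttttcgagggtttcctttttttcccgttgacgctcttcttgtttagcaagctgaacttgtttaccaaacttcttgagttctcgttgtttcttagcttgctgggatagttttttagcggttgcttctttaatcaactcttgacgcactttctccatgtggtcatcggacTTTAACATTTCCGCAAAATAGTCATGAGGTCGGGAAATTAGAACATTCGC
SPNCRNA.07 (chromosome III, minus strand): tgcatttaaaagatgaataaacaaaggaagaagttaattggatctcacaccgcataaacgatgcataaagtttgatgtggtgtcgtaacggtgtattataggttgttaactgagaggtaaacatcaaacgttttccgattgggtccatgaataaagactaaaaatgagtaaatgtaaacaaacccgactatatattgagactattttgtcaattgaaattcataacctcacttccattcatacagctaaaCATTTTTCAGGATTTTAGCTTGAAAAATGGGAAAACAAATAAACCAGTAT
SPNCRNA.1558 (chromosome II, minus strand): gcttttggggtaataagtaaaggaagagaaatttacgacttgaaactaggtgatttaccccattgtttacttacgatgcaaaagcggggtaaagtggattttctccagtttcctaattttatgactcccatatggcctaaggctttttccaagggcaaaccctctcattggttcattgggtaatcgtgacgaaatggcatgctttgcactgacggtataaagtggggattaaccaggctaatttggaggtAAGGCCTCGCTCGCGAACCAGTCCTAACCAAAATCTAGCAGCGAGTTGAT
At the 3′ end, windows run from 100 bases before to 50 after the annotated end, with the poly(A) signal hexamer AATAAA in capitals, a motif that marks the cleavage sites of many messages. Its first base is 28 bases before the end of SPNCRNA.787 and 30 before that of meu3.
SPNCRNA.787: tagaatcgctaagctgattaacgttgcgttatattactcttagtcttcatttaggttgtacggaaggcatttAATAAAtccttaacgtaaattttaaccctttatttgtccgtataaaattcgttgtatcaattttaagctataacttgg
SPNCRNA.07: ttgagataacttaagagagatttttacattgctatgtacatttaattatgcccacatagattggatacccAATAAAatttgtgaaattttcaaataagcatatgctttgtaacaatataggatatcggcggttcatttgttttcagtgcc

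The share of members with each motif was somewhat smaller than that of other RNAs of the same class, a description that was not tested. Member starts also lay more often inside opposite coding sequence, as given above, so the start windows searched differ in kind. TATAAA, read on both strands of the start window, was in 25 of 72 members, or 34.7%, and in 43.9% of the 1351 other SPNCRNA. AATAAA, read on the strand of the RNA in the end window, was in 20 of 72 members, or 27.8%, and in 31.8% of the others. TNAAAC, in DNA letters the hexamer that the RNA elimination factor Mmi1 binds, was in the first 500 bases of 58% of the 69 members that are long enough to be scored and of 66% of 1124 others. TATAAA and AATAAA share the letters ATAAA but were read in different windows. A match is a match of letters and says nothing of binding.

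**Figure D1:**
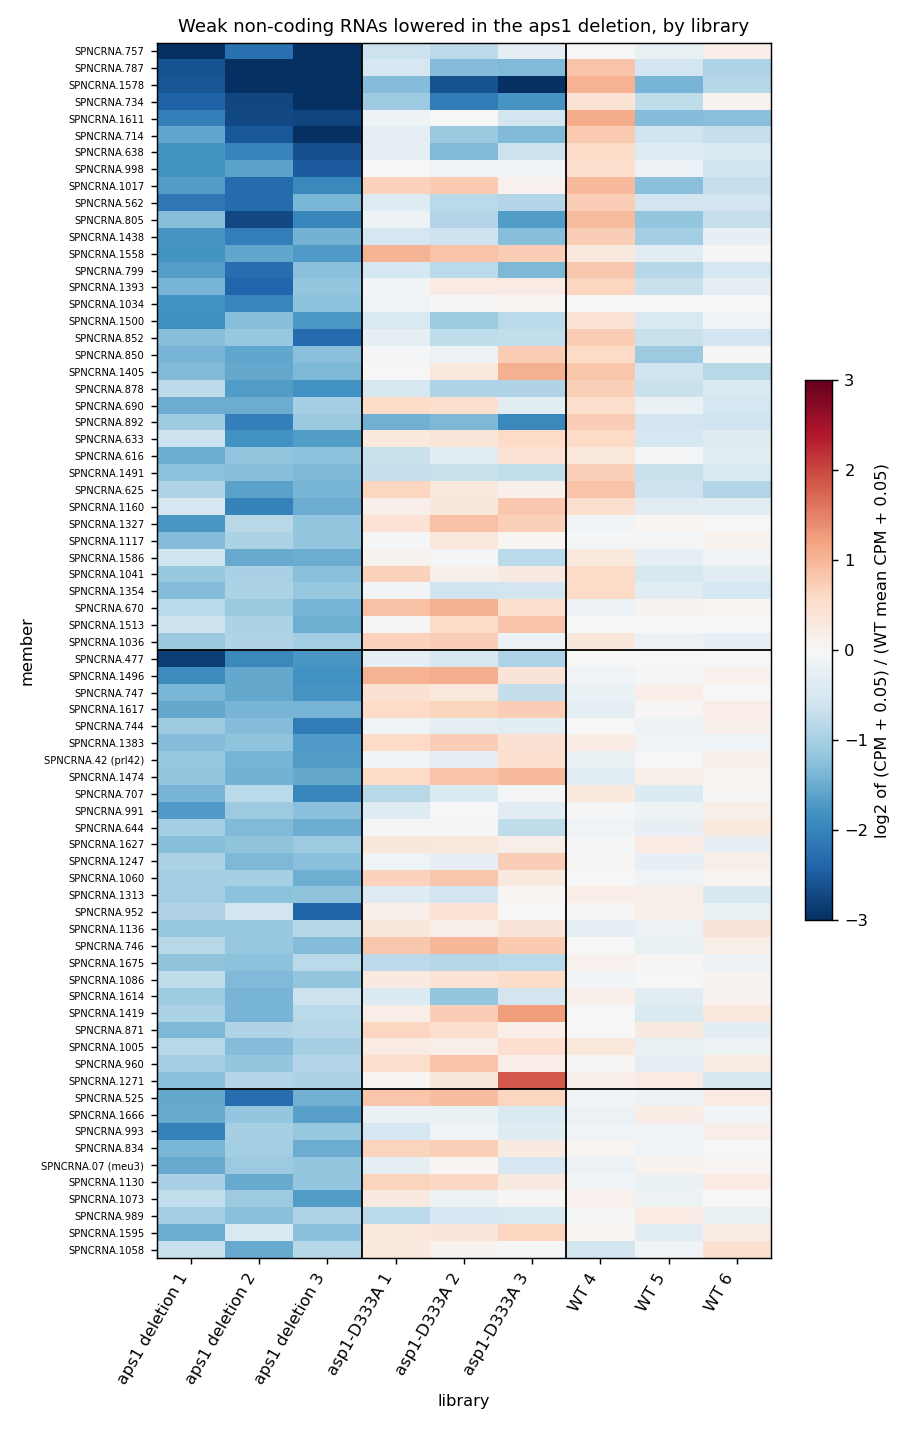
Level of each of the 72 members (rows) in each library (columns) as the log2 of its CPM over its WT mean CPM, with 0.05 CPM added to both; colours stop at 3 in either direction. Black lines divide the members antisense to a gene and under 2% of its counts (top, 36), at 2% or more (middle, 26) and with no opposite coding gene (bottom, 10). WT 4 is darker red than WT 5 and WT 6 in much of the top block.

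Summed over the members, the aps1 deletion libraries had 95.9, 88.6 and 86.5 CPM, the asp1-D333A libraries 260, 262 and 250 CPM and the WT libraries 278, 205 and 213 CPM. Both WT 5 and WT 6 were below all asp1-D333A libraries, and WT 4 was above them. These are levels in whole cultures, in which less RNA per cell and fewer cells making it cannot be told apart. The ratio of aps1 deletion to WT had a median of 0.391 over the members, and 0.441 (0.0731 to 0.686) when WT 4 was left out, which left 56 of 72 at 0.5 or below. In the fit across all features (edgeR's quasi-likelihood test, 6147 features tested, all 72 members among them), members ran from -3.64 to -0.947 in log2 fold change of aps1 deletion over WT, with standard errors of 0.179 to 0.797 and a median of -1.29, against -0.0074 over all features tested and -0.44 over the weak SPNCRNA. Of the members 64 passed an adjusted p of 0.05 as lower, and 45 without WT 4, beside 9.83% of all features called lower and 6.73% called higher. By libraries alone, 26% of all features had every aps1 deletion library below every WT library and 13.2% had every one above. The rule used this contrast, so the count carries no weight of its own.

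The members with the most counts in WT were mostly antisense RNAs, as were the members as a whole. SPNCRNA.747, antisense to osh3, which encodes a sterol transfer protein, had 2.94, 2.62 and 2.22 CPM in the aps1 deletion, 10.5, 9.58 and 4.65 CPM in asp1-D333A and 6.69, 8.83 and 7.59 CPM in WT. SPNCRNA.1496, antisense to rpb8, a subunit shared by the RNA polymerases, had 1.82, 2.36 and 1.93 CPM in the aps1 deletion, 14.3, 14.6 and 9.0 CPM in asp1-D333A and 6.41, 6.74 and 7.54 CPM in WT. For it the 3 strains formed 3 levels that did not overlap, lowest in the aps1 deletion and highest in asp1-D333A.
SPNCRNA.1034, antisense to the cell wall glucan synthase gene bgs3, had 1.82, 1.64 and 2.77 CPM in the aps1 deletion, 5.97, 6.37 and 6.96 CPM in asp1-D333A and 6.52, 6.59 and 6.51 CPM in WT. Its asp1-D333A libraries lay on both sides of the WT libraries. Per length it had the highest WT level of the members, 16.1 CPM per kilobase, against 15.8 in asp1-D333A and 5.10 in the aps1 deletion.
SPNCRNA.1005, antisense to the RNA helicase gene hca4, had 3.44, 2.46 and 3.06 CPM in the aps1 deletion, 7.33, 6.98 and 8.70 CPM in asp1-D333A and 7.62, 5.26 and 5.53 CPM in WT. SPNCRNA.1313, antisense to abc3, a transporter gene, had 2.58, 2.21 and 2.27 CPM in the aps1 deletion, 4.03, 3.60 and 5.52 CPM in asp1-D333A and 6.08, 5.95 and 3.77 CPM in WT. In both, asp1-D333A overlapped WT.
SPNCRNA.1675, antisense to the carbohydrate kinase gene SPBC1861.05, had 2.23, 2.21 and 2.96 CPM in the aps1 deletion, 3.01, 2.85 and 2.96 CPM in asp1-D333A and 5.70, 5.36 and 4.65 CPM in WT, so that both mutants were below every WT library.

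The 10 members with the lowest ratios were all antisense RNAs, as were most members. SPNCRNA.757, opposite the mitochondrial chaperone gene ssc1, had 1, 4 and 0 counts in the aps1 deletion, 15, 15 and 22 counts in asp1-D333A and 21, 20 and 26 counts in WT. Its ratio of aps1 deletion to WT, 0.0734, was the lowest of the members and was 0.0731 without WT 4; with so few counts in the aps1 deletion the ratio is imprecise (log2 fold change -3.64, SE 0.569). SPNCRNA.734, opposite ade3, which encodes a purine synthesis enzyme, had 0.203, 0.154 and 0.0988 CPM in the aps1 deletion, 0.583, 0.264 and 0.348 CPM in asp1-D333A and 1.75, 0.744 and 1.39 CPM in WT. Here both mutants were below all WT libraries.
SPNCRNA.477, opposite the tRNA methyltransferase gene trm8, had 0.253, 0.513 and 0.593 CPM in the aps1 deletion, 1.75, 1.49 and 1.09 CPM in asp1-D333A and 2.08, 2.13 and 2.12 CPM in WT. The WT libraries were close together, and asp1-D333A lay between the other strains. SPNCRNA.638 lies opposite cid14, the poly(A) polymerase of the TRAMP complex that marks RNA for the exosome, and the cleavage factor gene pfs2. It had 0.304, 0.257 and 0.148 CPM in the aps1 deletion, 0.971, 0.439 and 0.739 CPM in asp1-D333A and 1.75, 0.893 and 0.878 CPM in WT, a ratio of 0.201, or 0.267 without WT 4.

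In the remaining members of these 10, as in SPNCRNA.638, WT 4 was at more than 1.5 times the higher of the other WT libraries. SPNCRNA.1611, opposite the histone H4 gene hhf3, had 10, 6 and 6 counts in the aps1 deletion, 42, 52 and 35 counts in asp1-D333A and 91, 18 and 18 counts in WT. Its ratio of aps1 deletion to WT was 0.163, and 0.406 without WT 4. SPNCRNA.1578, opposite the ribosomal protein gene rpl102, had 9, 5 and 5 counts in the aps1 deletion, 24, 10 and 5 counts in asp1-D333A and 112, 22 and 31 counts in WT, a ratio of 0.109, or 0.238 without WT 4.
SPNCRNA.787, opposite the rRNA processing gene ebp2, had 0.253, 0.154 and 0.0988 CPM in the aps1 deletion, 1.26, 0.703 and 0.696 CPM in asp1-D333A and 3.29, 1.19 and 0.930 CPM in WT. SPNCRNA.1017, opposite the translation release factor gene erf1, had 1.06, 0.667 and 0.889 CPM in the aps1 deletion, 5.73, 6.06 and 3.87 CPM in asp1-D333A and 6.96, 1.44 and 2.17 CPM in WT. Without WT 4 the ratios were 0.159 for SPNCRNA.787 and 0.484 for SPNCRNA.1017.
SPNCRNA.714, opposite the translation initiation gene tif52, stood at 0.165 of WT and SPNCRNA.998, opposite rex1, a ribonuclease gene, at 0.238, or 0.263 and 0.310 without WT 4. Among the members with the most counts, SPNCRNA.625, SPNCRNA.1491 and SPNCRNA.1005 were above the 0.5 limit without that library, the last at 0.555. SPNCRNA.625, opposite the ribosomal protein gene rps2601, had 3.70, 2.26 and 2.62 CPM in the aps1 deletion, 10.9, 8.70 and 7.78 CPM in asp1-D333A and 12.7, 4.56 and 3.77 CPM in WT. Its ratio was 0.407 with WT 4 and 0.686 without it, the highest of the members. SPNCRNA.1491, opposite the ribosome biogenesis gene pwp1, had a ratio of 0.406 with WT 4 and 0.597 without.

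The excess in WT 4 lay in members with few counts relative to the opposite gene. For each antisense member, its counts over all libraries were set against those of its most counted opposite gene. The split at 2% was chosen after these values had been seen, and the shares are of counts, not corrected for length. The members' share of that gene ran from 0.062% to 1225%, with a median of 1.44%, against 6.24% for the other antisense weak SPNCRNA, and the opposite gene had a median of 123 CPM in WT, against 60.6 CPM.
In the 36 members under 2%, WT 4 had a median of 2.07 times the mean of WT 5 and WT 6, and 23 of these members, and none of the rest, had WT 4 at more than 1.5 times the higher of the other WT libraries. In the 26 members at 2% or more the median was 1.01, and in the 10 members with no opposite coding gene it was 0.91. Across the 62 antisense members, which share the libraries, Spearman's correlation of share and WT 4 excess was -0.714, given as a description.

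**Figure D2:**
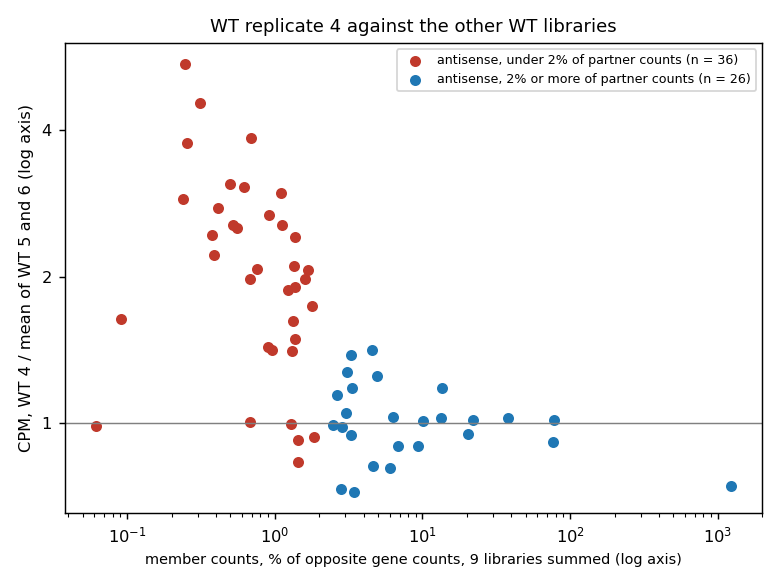
CPM in WT 4 over the mean of WT 5 and WT 6 (log axis) for the 62 antisense members, against the member's counts as a percentage of its opposite gene's counts over all libraries (log axis). Members under 2% (red) reach 5.47 times the other WT libraries, and those at 2% or more (blue) stay between 0.723 and 1.41 times.

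The ratio of aps1 deletion to WT moved most without WT 4 in the members under 2%. In these its median was 0.348 with all libraries and 0.460 without WT 4, with 23 of 36 still at or below 0.5. In the members at 2% or more it was 0.442 and 0.444, with 23 of 26, and in those with no opposite gene 0.421 and 0.415, with 10 of 10. Summed levels of the members under 2% were 35.7, 29.7 and 30.6 CPM in the aps1 deletion, 97.2, 90.7 and 81.2 CPM in asp1-D333A and 140, 67.6 and 71.6 CPM in WT. For the members at 2% or more the sums were 44.2, 42.5 and 40.7 CPM in the aps1 deletion, 123, 130 and 133 CPM in asp1-D333A and 102, 99.5 and 103 CPM in WT. For those with no opposite gene they were 16.1, 16.5 and 15.2 CPM in the aps1 deletion, 39.9, 40.9 and 35.8 CPM in asp1-D333A and 35.7, 37.7 and 38.4 CPM in WT. In every class the aps1 deletion libraries were below all others, which for the WT libraries follows from the rule.

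Shares of the opposite gene's counts were set beside the same shares for 50 other SPNCRNA, those opposite the most counted coding genes. These 50 controls leave out the members, RNAs that overlap a coding gene on the same strand and RNAs with no count. Among these controls the median share was 0.338%, 0.209% and 0.244% in the aps1 deletion, 0.545%, 0.546% and 0.427% for asp1-D333A and 0.934%, 0.330% and 0.365% in WT. The aps1 deletion libraries overlapped WT 5 and WT 6, and WT 4 was above all others. Their median ratio of aps1 deletion to WT was 0.536, and 0.846 without WT 4.
In the members under 2% the median share was 0.389%, 0.371% and 0.346% in the aps1 deletion, 1.24%, 0.965% and 1.00% for asp1-D333A and 1.52%, 0.833% and 0.844% in WT. In those at 2% or more it was 2.93%, 3.34% and 3.28% in the aps1 deletion, 7.89%, 7.97% and 6.22% for asp1-D333A and 7.61%, 6.80% and 6.57% in WT. Both member classes were chosen to be low in the aps1 deletion, and the controls were taken after the members had been removed, so the gap is no test. The part of WT 4's antisense excess in the members' ratios was not tested beyond leaving that library out.

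**Figure D3:**
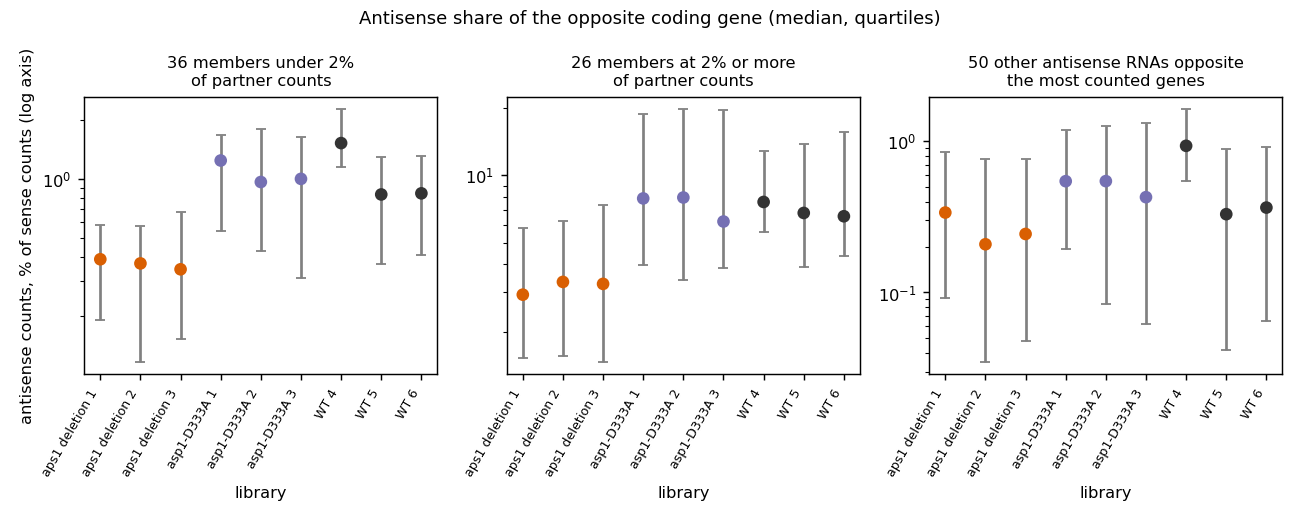
Counts of antisense RNAs as a percentage of the counts of the opposite coding gene (log axis; scales differ between panels) in each library. Points are medians and bars run from the lower to the upper quartile. WT 4 stands above WT 5 and WT 6 in the left panel (1.52%, 0.833% and 0.844%) and in the right panel of 50 other antisense RNAs (0.934%, 0.330% and 0.365%).

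Reads of a member and of an opposite gene can be told apart only by strand. The kit marks strand, and 12 members whose whole span lies inside the opposite gene in the annotation used here had 109 to 661 counts over the 9 libraries. That these members had counts follows from the rule, which asks for a WT mean of at least 1 CPM. Over all SPNCRNA, most of which the rule did not choose, only 6 of the 159 that lie wholly inside an opposite gene had no count. Whether counting was set to use strand is not given in the sources used here. Of the members only SPNCRNA.1117, opposite fft2, has near-identical matches elsewhere in the genome, 24 in all. These cover part of the RNA: the longest is 319 nucleotides, against 1055 for the RNA, with identities of up to 99%. The counts of SPNCRNA.1117 are therefore uncertain. It had 0.709, 0.924 and 0.790 CPM in the aps1 deletion and 1.80, 2.28 and 1.91 CPM in asp1-D333A. In WT it had 1.75, 1.79 and 1.96 CPM.

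No coding gene lies opposite 10 members. SPNCRNA.07 (meu3), a transcript first named for being raised in meiosis, had 1.77, 2.41 and 2.27 CPM in the aps1 deletion, 4.27, 5.40 and 3.61 CPM in asp1-D333A and 4.60, 5.55 and 5.37 CPM in WT. SPNCRNA.989 had 3.39, 2.87 and 3.65 CPM in the aps1 deletion, 3.93, 4.88 and 5.04 CPM in asp1-D333A and 6.63, 8.28 and 5.94 CPM in WT, so that the strains formed 3 levels with asp1-D333A in the middle.
SPNCRNA.1073 and SPNCRNA.525 lie between the same pair of coding genes, the myosin light chain gene cdc4 and SPAP8A3.07c, on opposite strands. SPNCRNA.525, of 665 nucleotides, is longer than the distances of 128 and 338 bases from SPNCRNA.1073 to these genes. The RNAs therefore overlap, and their reads too can be told apart only by strand. SPNCRNA.1073 had 3.29, 2.57 and 1.68 CPM in the aps1 deletion, 6.60, 4.96 and 5.65 CPM in asp1-D333A and 6.03, 4.91 and 5.53 CPM in WT. SPNCRNA.525 had 0.557, 0.308 and 0.593 CPM in the aps1 deletion, 3.06, 3.29 and 2.70 CPM in asp1-D333A and 1.59, 1.49 and 2.01 CPM in WT. Only SPNCRNA.525 of the pair had all asp1-D333A libraries above WT.
SPNCRNA.1666, between the amino acid synthesis genes ilv5 and met6, had 1.77, 2.26 and 1.63 CPM in the aps1 deletion, 4.42, 4.44 and 3.74 CPM in asp1-D333A and 4.55, 5.95 and 4.85 CPM in WT. SPNCRNA.834 overlaps the vacuolar protease gene isp6 on the same strand and so may share its reads; it had 1.62, 2.1 and 1.48 CPM in the aps1 deletion, 6.80, 7.07 and 5.13 CPM in asp1-D333A and 4.49, 4.07 and 4.29 CPM in WT.

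In asp1-D333A the members were neither uniformly low nor uniformly high, within a range that the rule closed at 2 times WT. The ratio of asp1-D333A to WT had a median of 1.08, from 0.206 to 1.97. Without WT 4 the median was 1.12, from 0.372 to 2.89, so that some members passed 2. With all libraries the other 608 weak SPNCRNA, to which no upper limit applied, had a median ratio of 1.43. In 15 members all asp1-D333A libraries were above all WT libraries, in 10 all were below and in 47 the libraries overlapped; over all features tested 42.5% were above and 24.1% below. Against WT 5 and WT 6 alone, a comparison added after the values had been seen, 26 members were above and 11 below, beside 45.5% and 25.3% of all features. All aps1 deletion libraries were below all asp1-D333A libraries in 63 members, beside 47.1% of all features. Both mutants are set against the same WT libraries, and the rule capped the asp1-D333A mean, so neither count is a test.
With all libraries the highest ratios were those of SPNCRNA.1271, SPNCRNA.1558, SPNCRNA.746, SPNCRNA.1496 and SPNCRNA.670. This order rested on WT 4: without it SPNCRNA.1017 stood highest at 2.89, against 1.48 with it, followed by SPNCRNA.1405 at 2.42, SPNCRNA.625 at 2.19 and SPNCRNA.1611 at 2.14, and SPNCRNA.1558 and SPNCRNA.1271 came next at 2.1 and 2.09. SPNCRNA.1611 was below WT with all libraries, at 0.858. SPNCRNA.1558, opposite the respiratory chain gene qcr10, had 0.608, 0.719 and 0.642 CPM in the aps1 deletion, 4.52, 4.04 and 3.74 CPM in asp1-D333A and 2.74, 1.74 and 2.17 CPM in WT. SPNCRNA.746, opposite slm3, a tRNA-modifying enzyme gene, had 2.53, 2.05 and 1.83 CPM in the aps1 deletion, 8.01, 9.22 and 7.87 CPM in asp1-D333A and 4.60, 3.92 and 5.16 CPM in WT. In these and in SPNCRNA.1496 and SPNCRNA.670 the 3 strains did not overlap.
SPNCRNA.1271, opposite the protein kinase kinase gene ckk2, was led by 1 library, with 2.03, 2.62 and 2.52 CPM in the aps1 deletion, 5.20, 6.15 and 17.5 CPM in asp1-D333A and 5.43, 5.75 and 3.46 CPM in WT. SPNCRNA.670, opposite the chaperonin gene cct2, had 2.53, 2.05 and 1.68 CPM in the aps1 deletion, 8.35, 9.49 and 6.39 CPM in asp1-D333A and 3.95, 4.86 and 4.65 CPM in WT. It also overlaps a coding gene on its own strand, whose reads it may share.
With all libraries the lowest ratios of asp1-D333A to WT were those of SPNCRNA.1578 at 0.206, SPNCRNA.734 at 0.307, SPNCRNA.892 at 0.333, SPNCRNA.787 at 0.492 and SPNCRNA.799 at 0.541, all under 2% of their opposite gene. Without WT 4 they were 0.451 for SPNCRNA.1578, 0.372 for SPNCRNA.734, 0.501 for SPNCRNA.892, 0.837 for SPNCRNA.787 and 0.883 for SPNCRNA.799. The first 3 were still the lowest, but SPNCRNA.1675, at 2% or more of its opposite gene, at 0.588 and SPNCRNA.989, with no opposite gene, at 0.649 were then below the other two. SPNCRNA.892, opposite the translation initiation gene tif211, had 1.77, 0.873 and 1.73 CPM in the aps1 deletion, 1.36, 1.45 and 0.957 CPM in asp1-D333A and 6.30, 2.53 and 2.48 CPM in WT. SPNCRNA.799, opposite the alanine tRNA ligase gene ala1, had 0.658, 0.411 and 0.889 CPM in the aps1 deletion, 1.51, 1.23 and 0.826 CPM in asp1-D333A and 3.89, 1.19 and 1.5 CPM in WT, so that asp1-D333A overlapped WT. The ratio of aps1 deletion to WT was 0.387 for SPNCRNA.892 and 0.298 for SPNCRNA.799, or 0.582 and 0.486 without WT 4.

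**Figure D4:**
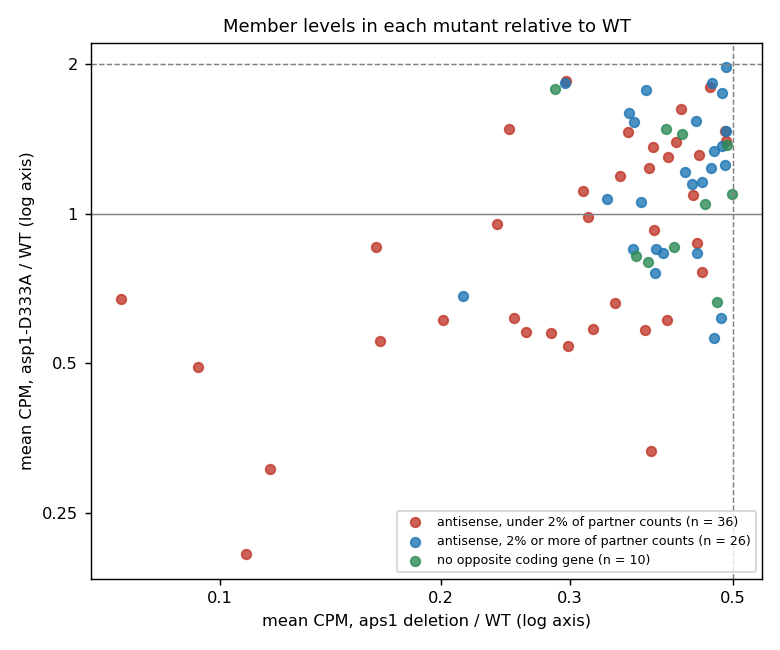
Mean CPM in asp1-D333A over WT against mean CPM in the aps1 deletion over WT for the 72 members (log axes; dashed lines are the limits of the rule at 0.5 and 2). The 4 members with the lowest ratios on the horizontal axis, all under 2% of their opposite gene, have asp1-D333A ratios of 0.206 to 0.672, or 0.372 to 0.837 without WT 4, whose level enters both axes through the WT mean.

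Coding genes next to the members were not used by the rule and could be tested. They comprise 170 genes that overlap a member or are the nearest within 1 kilobase in each orientation, 167 of them tested. In the aps1 deletion 7 rose and 10 fell, 10.2%, against 16.6% of all features and 13.7% of all coding genes tested (edgeR, adjusted p under 0.05). Their median log2 fold change was -0.0025. Of 74 tested genes opposite a member, 6 rose and 3 fell, with a median of 0.018, which became -0.039 with scaling by total counts. Of the calls over all neighbours 41.2% were higher, against 25% with total-count scaling and 56.5% by DESeq2. A fit on the 6 aps1 deletion and WT libraries alone called 35 neighbours, or 21.1%, beside 24.8% of all features in that fit, and 54.3% of these calls were higher. Leaving out WT 6 left 10 calls and leaving out aps1 deletion replicate 2 left 11, beside 10.2% and 8.71% of all features.
mfs1, which encodes a membrane transporter and lies opposite SPNCRNA.991, had 192, 161 and 174 CPM in the aps1 deletion and 84.6, 79.2 and 93.1 CPM in WT (log2 fold change 1.09, SE 0.071, adjusted p = 4.3e-07 by edgeR). SPNCRNA.991 had 1.57, 2.41 and 2.17 CPM in the aps1 deletion and 5.04, 4.71 and 5.94 CPM in WT. The mfs1 libraries were apart and higher in the aps1 deletion, while the low level of the member is the rule.
mei2, which encodes the RNA-binding protein that drives entry into meiosis, is transcribed away from SPNCRNA.993. It had 34.8, 39.0 and 38.3 CPM in the aps1 deletion and 94.8, 97.8 and 88.8 CPM in WT (log2 fold change -1.27, SE 0.092, adjusted p = 1.1e-06 by edgeR). SPNCRNA.993 had 0.405, 0.873 and 0.790 CPM in the aps1 deletion and 1.64, 1.69 and 2.07 CPM in WT. The low level of SPNCRNA.993 is the rule, so only that of mei2 is a result.
Other neighbours that fell were mug14, divergent from SPNCRNA.1313, by 1.29 on the log2 scale, and isp5, an amino acid transporter gene divergent from SPNCRNA.1086, by 1.03. The meiotic RNA-binding gene mpf2, divergent from SPNCRNA.1136, fell by 0.54, the trehalase gene ntp1, opposite SPNCRNA.1327, by 0.44 and isp6, which overlaps SPNCRNA.834 on the same strand, by 0.46. SPAC57A7.05, opposite SPNCRNA.744, fell by 0.73 and SPAC17H9.06c, upstream of SPNCRNA.787, by 0.48. The gene wwm1, opposite SPNCRNA.1438, rose by 0.45. Of genes convergent with a member or downstream on its strand none was called of 16 and 24; at an unadjusted p under 0.05 these counts were 0 and 3, and DESeq2 called 0 and 1.

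In asp1-D333A 45 of the 167 neighbours rose and 64 fell, or 26.9% and 38.3%. Of all coding genes tested 27.4% rose and 35.2% fell, close to the neighbours. Calls in either direction made up 65.3% of the neighbours, against 61.1% of all features (30.3% higher and 30.8% lower) and 62.6% of coding genes. The most counted opposite genes of the members under 2% numbered 6 higher and 19 lower of 36, and those of the members at 2% or more 8 and 8 of 25. With upper-quartile scaling the median over all features became 0.177 in log2 fold change, and these splits were 11 higher and 16 lower, and 11 and 4. Over all neighbours it gave 56.8% of calls as higher, against 41.3% in the main fit. Among the opposite genes that fell, erf1, opposite SPNCRNA.1017, had 294, 292 and 348 CPM in asp1-D333A and 577, 534 and 530 CPM in WT (log2 fold change -0.95, SE 0.072, adjusted p = 2.3e-07 by edgeR). ala1, opposite SPNCRNA.799, fell by 0.88 on the log2 scale, csn71, a signalosome subunit gene opposite SPNCRNA.1041, by 0.93 and guf1, a GTPase gene opposite SPNCRNA.1036, by 0.97.
abc3, opposite SPNCRNA.1313, had 124, 126 and 129 CPM in asp1-D333A and 53.1, 52.2 and 48.8 CPM in WT, higher by 1.17 on the log2 scale with an SE of 0.072 (edgeR adjusted p = 5.0e-08). mei2 had 14.5, 13.4 and 13.5 CPM in asp1-D333A, against 94.8, 97.8 and 88.8 CPM in WT, lower by a log2 fold change of -2.90 with an SE of 0.0995 (edgeR adjusted p = 3.1e-10), while its divergent partner SPNCRNA.993 had 1.26, 1.67 and 1.39 CPM in asp1-D333A, which overlapped WT. isp5, which fell in the aps1 deletion, rose by 1.02 here. SPAC23H4.05c, upstream of SPNCRNA.746, rose by 1.35, SPBC1105.13c, upstream of SPNCRNA.1611, rose by 1.23 and shm2, a serine hydroxymethyltransferase gene upstream of SPNCRNA.805, fell by 1.01.

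**Figure D5:**
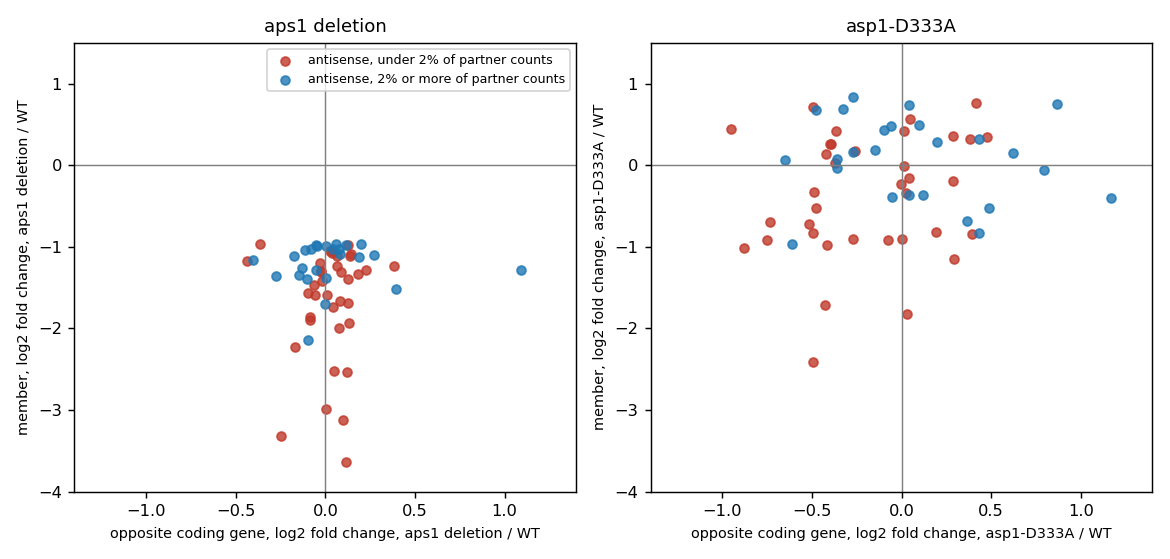
Log2 fold change over WT of each antisense member against that of its most counted opposite coding gene, with the aps1 deletion on the left and asp1-D333A on the right, from the fit across all features. In the left panel the members lie at -0.95 or below, through the rule, while the opposite genes scatter about 0 with a range of -0.44 to 1.09.

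Genes whose products remove RNA or terminate its transcription were also tested in both mutants. Of 92 genes in 6 lists, 4 rose and 2 fell in the aps1 deletion, beside 16.6% of all features called, and their median log2 fold change was 0.053. The fit on 6 libraries called 15 of them, or 16.3%, and 24.8% of all features. DESeq2 called 11, or 12%, and 18.9% of all features, and without aps1 deletion replicate 3 the count was 3, or 3.26%, beside 9.19% of all features. Among 20 genes of 3′ processing and termination, 3 rose: msi2, which had 76.8, 69.7 and 66.3 CPM in the aps1 deletion and 45.1, 48.5 and 49 CPM in WT (log2 fold change 0.63, SE 0.092, adjusted p = 0.0005 by edgeR), the phosphatase gene ssu72 by 0.46 and the termination factor gene seb1 by 0.29. Among 11 RNA interference genes, clr4, the histone H3 lysine methyltransferase gene, rose by 0.42 and stc1, which links the RNA interference machinery to it, fell by 0.51. Of 16 genes of the nuclear exosome and its cofactors, cti1 fell by 0.26.
None of 11 genes of MTREC, the complex that hands RNAs to the exosome, and Mmi1, of 19 chromatin factors and of 15 cytoplasmic decay genes was called by edgeR. At an unadjusted p under 0.05 these lists had 3, 2 and 3 genes, and DESeq2 called 3, 0 and 1 of their genes.
In asp1-D333A 15 of the 92 genes rose and 39 fell, beside 61.1% of all features called. Of all coding genes tested 27.4% rose and 35.2% fell. Of the calls among the 92 genes 27.8% were higher, and 40.8% with upper-quartile scaling. Without WT 4, 8 rose and 40 fell. The exosome list had 6 higher and 4 lower, which became 8 and 2 with upper-quartile and 7 and 2 with total-count scaling. Its largest rise was that of the cofactor gene mpp6, by 0.54, and its largest fall that of the core subunit gene rrp42, by 0.63. The MTREC list had 2 higher and 5 lower, among them the cap-binding gene cbc1, which fell by 0.89. Of RNA interference genes 2 rose and 3 fell, which became 3 and 2 with upper-quartile scaling. The gene stc1 rose to 17.1, 13.8 and 17.3 CPM in asp1-D333A, against 8.66, 8.33 and 9.19 CPM in WT. The chromatin list had 1 higher and 7 lower, the cytoplasmic decay list 2 higher and 8 lower, and the 3′ processing list 2 higher and 12 lower. With upper-quartile scaling these became 1 and 4, 3 and 8, and 3 and 8. In that list swd22, a subunit of the cleavage and polyadenylation machinery, had 46.0, 45.5 and 43.6 CPM in asp1-D333A and 95.9, 92.9 and 86.8 CPM in WT (log2 fold change -1.16, SE 0.077, adjusted p = 7.7e-08 by edgeR).

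The mean profile of the members over the 9 libraries was compared with the 871 other SPNCRNA that averaged at least 1 CPM, by Pearson's r of log2 values with 1 CPM added. The most alike were SPNCRNA.1026, opposite the mating gene fus1, with r = 0.979, SPNCRNA.829, opposite trp2, with r = 0.977, and SPNCRNA.1563, opposite pof10, with r = 0.969. SPNCRNA.1026 had 7.75, 6.36 and 6.87 CPM in the aps1 deletion, 17.0, 17.7 and 18.1 CPM in asp1-D333A and 18.4, 17.2 and 14.9 CPM in WT, so it was above the WT limit for members. Pearson's r takes no account of the size of a change. SPNCRNA.829 averaged 6.78 CPM in the aps1 deletion and 11.1 CPM in WT, and SPNCRNA.1563 16.8 and 20.3 CPM. SPNCRNA.829 is also among the 50 antisense controls described above. The members' own r with their mean ran from 0.413 to 0.964, with a median of 0.856. At the limit of 0.5, the last members inside were SPNCRNA.1058 at 0.498, SPNCRNA.1595 at 0.490 and SPNCRNA.1271 at 0.489, and the first outside SPNCRNA.1445 at 0.501, SPNCRNA.1249 at 0.505 and SPNCRNA.756 at 0.506, so the members grade into RNAs that were almost as low.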

How the data were processed

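Poly(A) RNA of 9 libraries was measured by stranded RNA-seq. The deposited table holds the authors' raw read counts per identifier (6987 lines, 6986 identifiers). The submitters' processing notes name HISAT2 2.1.0, SAMtools, HTSeq 0.10.0, DESeq2 and the assembly ASM294v2, and the strand setting of counting is not given in the sources used here. CPM is a count over the library's total. Members and gene lists were chosen with earlier results of these data known. Counts were fitted with edgeR 4.0.16 (R 4.3.3): TMM scaling, filterByExpr with a minimum count of 10, which removed 839 features, robust quasi-likelihood fit over all 9 libraries, Benjamini-Hochberg adjustment over 6147 features. The fit shares its estimate of the spread between strains. Alternatives were RLE, upper-quartile and total-count scaling, no filter, the 6 libraries of a pair, DESeq2 1.42.0 and leaving out each library. On counts simulated for the aps1 deletion comparison with 6115 features, 57% of 100 features lowered 2-fold and 94% of 100 lowered 4-fold were called, with 6 false calls. The lowered features came from a limited range of WT counts, and no simulated library carried an antisense excess like that of WT 4. These rates hold for the simulated settings only.

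RefSeq's ASM294v3 annotation gave names, overlaps, neighbours, lengths and sequences by identifier. Since its build differs from that of the counts, no coordinates are given. Near-identical matches elsewhere in the genome, whole or partial, were sought with BLAST 2.17.0 (at least 95% identity over 100 bases). The opposite gene of a member is the overlapping coding gene on the other strand with the most counts. Named members are the 10 with the highest WT mean, the 10 with the lowest ratio of aps1 deletion to WT, the 5 highest and 5 lowest ratios of asp1-D333A to WT and the 3 nearest inside the limit of 0.5, with 3 SPNCRNA outside. Up to 10 neighbours per comparison and 2 genes per list were named by size of change among those called. Other members and genes, among them SPNCRNA.07, SPNCRNA.525, SPNCRNA.834, SPNCRNA.993, SPNCRNA.991, SPNCRNA.1117, SPNCRNA.1405, SPNCRNA.1666, mpp6 and seb1, were chosen after their values were seen.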

Additional observations from a re-analysis of the deposited data

How the results depend on the processing

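The number of RNAs that met the rule was 71 with TMM-scaled and 71 with RLE-scaled CPM, each sharing 62 with the 72, and 64 to 107 when 1 library was left out. Without WT 4 it was 64, of which 50 were among the 72. For the aps1 deletion, 1018 features were called, and 539 to 871 with 1 library left out. Neighbours called were 17, 10 to 21 with 1 library left out and 35 on the 6 libraries of the pair. List genes called were 6, 3 to 7 with 1 library left out, 15 on the 6 libraries and 11 by DESeq2. The cause of these shifts was not tested. For asp1-D333A, the 3754 features, 109 neighbours and 54 list genes stayed within 1.5 times under every alternative run. The share of calls that were higher moved with scaling: over all features it was 40.7% in the aps1 deletion, 29.0% with upper-quartile, 24.8% with total-count scaling and 50% on the 6 libraries, and in asp1-D333A it was 49.6%, 67.3% with upper-quartile and 63.7% with total-count scaling. No named member reversed a called direction. SPNCRNA.757, with a log2 fold change of -3.64 in the aps1 deletion, stood at -5.21 without aps1 deletion replicate 2. No paired analysis was possible because each mutant and WT share no replicate number. Members average 0.085 to 3.31 CPM in the aps1 deletion, where few counts limit precision.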
